A study of Mus musculus with 14 samples.

Results

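The 9 genes followed here, of 36118 in the table, mark the projection neurons of the striatum and were measured in hippocampal RNA of 14 mice. They are Drd1, Drd2, Adora2a, Ppp1r1b, Rgs9, Pde10a, Rarb, Gpr6 and Adcy5, taken by symbol, and all 9 were among the 16637 genes that passed the filter on low counts and were tested. The set was selected on measured values, because earlier results of these same counts had shown that striatal marker genes separate the genotypes. The genotype differences of the members are therefore given as a description, and only their hyperoxia differences are read as a test.

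RNA was measured by polyA sequencing, with 1 library per mouse, from hippocampus collected at postnatal day 15. The mice, labelled C57/BL6, were wild type (WT) or GSDMD knockout (KO). They were kept in room air (RA) or in hyperoxia of 85% oxygen (O2) from postnatal day 1 to day 14, which gave 4 libraries each of WT-RA and WT-O2 and 3 each of KO-RA and KO-O2. GSDMD, gasdermin D, forms membrane pores in inflammatory cell death, and its KO here was global, present in every cell, made by a deletion in the gene, with WT littermates as controls.

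Libraries summed to between 27272270 and 28257496 estimated counts. Gsdmd itself had 41 to 63 counts in the WT libraries and 22 to 42 in the KO libraries, so its summed transcripts remained detectable in KO. The unscaled counts met only at KO-RA mouse GSD490 (42) and WT-RA mouse GSD401 (41). The paper reports that KO brains had no measurable Gsdmd transcript by qRT-PCR and no GSDMD protein detectable by immunostaining. Numbers of the WT mice ran from GSD398 to GSD408, those of the KO mice from GSD489 to GSD496, and genotype and number range cannot be told apart. The title of mouse GSD408 gives hyperoxia and its treatment field gives room air, and it was analysed as WT-O2. Hippocampal genes were detected in every library but not at an even level. Prox1, a factor of dentate granule neurons, ran from 999 to 6681 counts, and Neurod6, a factor of pyramidal neurons, from 4663 to 10516. Other hippocampal markers were lower, with minima of 110 counts for Dsp and 111 for Lct.

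Projection neurons of the striatum are inhibitory and respond to dopamine from the midbrain through cyclic AMP. Those of the direct pathway carry the D1 receptor, which raises cyclic AMP, and those of the indirect pathway carry the D2 receptor, which lowers it, together with an adenosine receptor, encoded by Adora2a, which raises it. The hippocampus receives dopamine as well, but its principal neurons are glutamatergic and most of these genes are known as striatal markers in comparison with it.

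RefSeq promoter windows, from 250 bases before to 50 bases after a transcript start, were found for 7 of the 9 members, in 9 windows, on GRCm38.p6. Adora2a and Ppp1r1b had no entry. The counts were made on another build, GRCm39, and no coordinate was converted. Letter patterns were searched on both strands in all 32851 windows: GGGCGG (a GC box), TGACGTCA (the cyclic AMP response element), TATAAA, and GTTCA followed after 6 bases by GTTCA (a form of the retinoic acid response element). Capitals mark their matches, in either orientation, and no match overlapped another. Shown, 5′ to 3′ in the direction of transcription, are the windows of Rarb and Gpr6, which alone held the retinoic acid and the cyclic AMP pattern, of Rgs9, which alone held TATAAA, of Drd2, and 1 of the 2 windows of Drd1. The other Drd1 window, chr13:54054731-54055030 on the - strand, held a GC box 133 bases before the start and 6 CpG dinucleotides against 23 in the window shown, and is not printed, nor are those of Pde10a and Adcy5.
Drd1, chr13:54055609-54055908, - strand: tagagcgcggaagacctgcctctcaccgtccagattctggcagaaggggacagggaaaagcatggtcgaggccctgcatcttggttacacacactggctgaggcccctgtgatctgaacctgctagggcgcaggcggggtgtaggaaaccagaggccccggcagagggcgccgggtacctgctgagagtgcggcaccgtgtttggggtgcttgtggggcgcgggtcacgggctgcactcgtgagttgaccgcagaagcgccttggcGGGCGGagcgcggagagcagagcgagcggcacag
Drd2, chr9:49340153-49340452, + strand: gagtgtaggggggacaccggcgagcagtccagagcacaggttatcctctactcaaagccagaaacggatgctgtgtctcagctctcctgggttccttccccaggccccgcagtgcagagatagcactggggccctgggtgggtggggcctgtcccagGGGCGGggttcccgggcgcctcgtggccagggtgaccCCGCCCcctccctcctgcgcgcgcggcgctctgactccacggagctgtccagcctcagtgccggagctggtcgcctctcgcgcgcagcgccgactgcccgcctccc
Rgs9, chr11:109298132-109298431, - strand: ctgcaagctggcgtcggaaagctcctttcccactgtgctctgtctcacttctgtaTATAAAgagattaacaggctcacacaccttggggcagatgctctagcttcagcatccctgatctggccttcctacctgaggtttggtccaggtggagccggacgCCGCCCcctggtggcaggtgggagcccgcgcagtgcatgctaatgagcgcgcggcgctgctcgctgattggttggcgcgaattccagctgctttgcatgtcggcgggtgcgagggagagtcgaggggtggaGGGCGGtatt
Rarb, chr14:16575427-16575726, - strand: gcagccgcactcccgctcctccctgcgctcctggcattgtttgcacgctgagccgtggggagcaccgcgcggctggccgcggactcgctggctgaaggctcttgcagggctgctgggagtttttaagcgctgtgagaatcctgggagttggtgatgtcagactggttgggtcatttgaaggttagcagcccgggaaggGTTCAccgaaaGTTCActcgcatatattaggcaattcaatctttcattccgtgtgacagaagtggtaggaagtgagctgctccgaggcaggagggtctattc
Gpr6, chr10:41072241-41072540, - strand: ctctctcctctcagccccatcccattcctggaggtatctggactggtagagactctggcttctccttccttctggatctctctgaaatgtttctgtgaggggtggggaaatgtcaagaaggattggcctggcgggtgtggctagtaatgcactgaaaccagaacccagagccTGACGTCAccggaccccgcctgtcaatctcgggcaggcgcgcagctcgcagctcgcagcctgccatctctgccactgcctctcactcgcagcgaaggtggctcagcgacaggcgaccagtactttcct

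The retinoic acid pattern began 52 bases before the start of Rarb, the retinoic acid receptor β gene, and stood in 0.0761% of all windows and 1 of the 9 windows of the members. Only this 1 exact spelling was searched, and other spellings of the element were not counted. The share therefore does not measure how rare the element is and is no test of the match in Rarb. Full cyclic AMP response elements stood in 1.79% of windows, and the match in Gpr6 began 78 bases before the start. GC boxes were found in 7 of the 9 windows of the members and in 35.7% of all windows. TATAAA stood in 13.6% of all windows, and the match in Rgs9 began 195 bases before the start. These are matches of letters and do not show binding.

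All 9 members were lower in KO than in WT hippocampus in room air and in hyperoxia, with every KO library below every WT library. Adora2a and Drd1 had the largest differences, at log2 fold changes of -2.79 and -2.70 in room air, and Adcy5 had the smallest, at -0.81. Hyperoxia did not move any member past the thresholds in either genotype. In bulk RNA, fewer cells of a type and less RNA per cell cannot be told apart. Levels are given in CPM, the counts scaled to a common library size by TMM, which corrects for composition but not for gene length, so levels are compared between libraries and not between genes.

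Among the receptors, Drd1 (ENSMUSG00000021478), the D1 dopamine receptor, was at 23.6, 26.1, 22.9 and 24.0 CPM in the WT-RA group (mice GSD398, GSD399, GSD400 and GSD401), and at 13.6, 20.4, 18.6 and 24.2 CPM in the WT-O2 group (mice GSD404, GSD405, GSD406 and GSD408). The KO-RA group (mice GSD489, GSD490 and GSD496) was at 2.38, 3.01 and 5.73 CPM, and the KO-O2 group (mice GSD491, GSD494 and GSD495) at 3.22, 3.89 and 1.91 CPM. The lowest WT library was at 2.37 times the highest KO library, and the KO libraries held 51 to 161 counts of Drd1 against 371 to 740 in WT. The KO mean was 15.3% of the WT mean in room air and 15.7% in hyperoxia.

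Drd2 (ENSMUSG00000032259), the D2 dopamine receptor, was at 24.9, 19.97, 13.99 and 16.3 CPM in WT-RA and at 7.88, 17.6, 16.6 and 25.7 CPM in WT-O2, in the same order of mice. In KO-RA it was at 4.01, 4.48 and 7.47 CPM, and in KO-O2 at 4.51, 5.58 and 4.69 CPM. WT-O2 mouse GSD404, at 7.88, and KO-RA mouse GSD496, at 7.47, nearly met, with a ratio of 1.05 that was the smallest of the 9 genes. The KO mean was 28.3% of the WT mean in room air and 29.1% in hyperoxia.

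Adora2a (ENSMUSG00000020178), the adenosine receptor that marks the indirect pathway beside Drd2, was at 29.5, 22.8, 19.6 and 24.3 CPM in WT-RA and at 15.1, 22.4, 20.3 and 29.5 CPM in WT-O2. It was at 2.30, 2.73 and 5.34 CPM in KO-RA and at 3.01, 1.94 and 3.30 CPM in KO-O2. The lowest WT library was at 2.84 times the highest KO library, the largest such ratio of the 9 genes. The KO mean was 14.4% of WT in room air and 12.6% in hyperoxia.

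Gpr6 (ENSMUSG00000046922), an orphan receptor of indirect pathway neurons that raises cyclic AMP, was at 6.15, 6.16, 6.71 and 5.06 CPM in WT-RA and at 3.66, 7.42, 4.74 and 6.45 CPM in WT-O2. In KO-RA it was at 2.71, 2.45 and 3.31 CPM, and in KO-O2 at 2.65, 2.02 and 2.33 CPM. Its libraries held 55 to 93 counts in KO and 100 to 207 in WT, the lowest WT counts of the 9 genes.

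**Figure D1:**
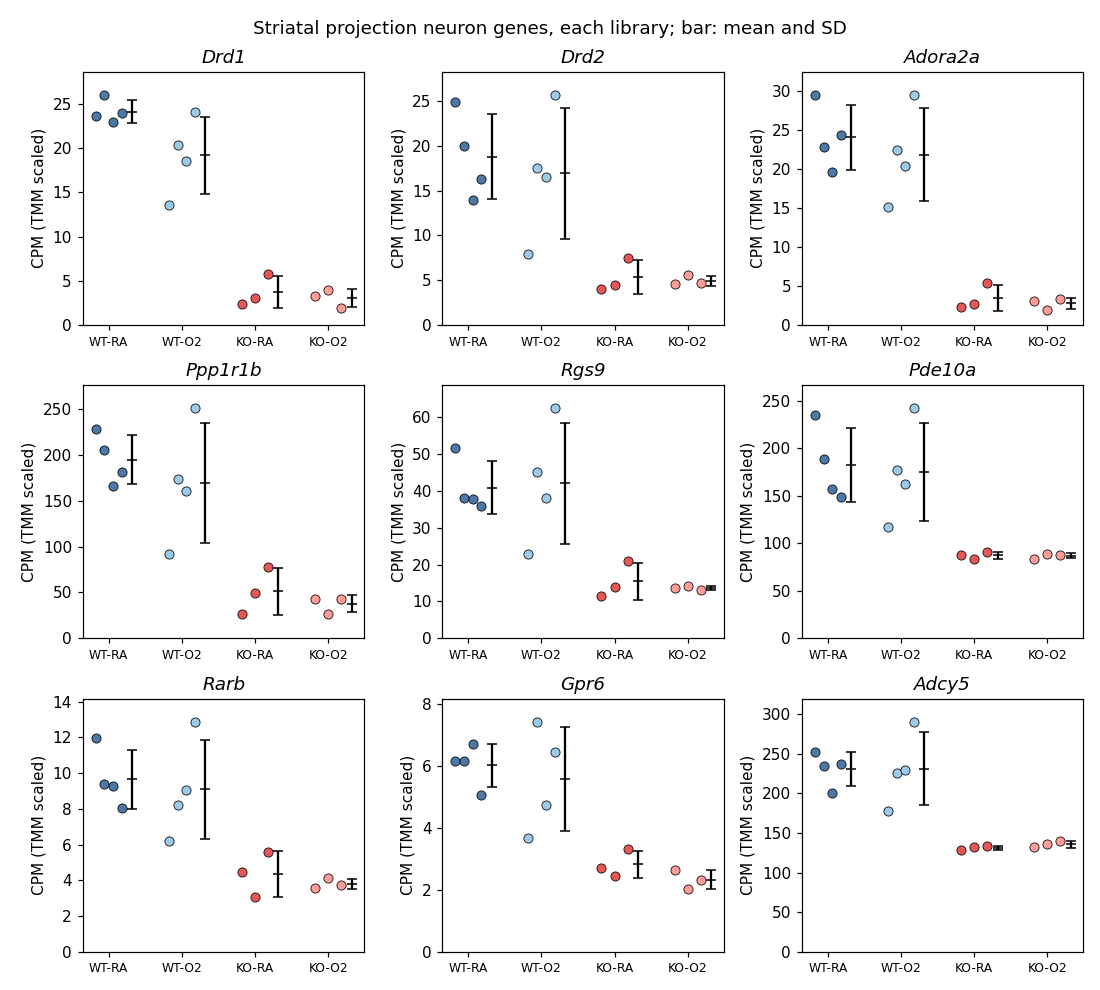
Level of each gene in CPM (vertical axis, starting at 0) in the 14 libraries by group (horizontal axis), with 1 point per mouse and the mean and SD beside the points. In all 9 panels the KO points lie below all WT points, and mouse GSD404 is the lowest WT-O2 point in each.

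Of the signalling proteins inside the cell, Ppp1r1b (ENSMUSG00000061718) encodes DARPP-32, a phosphatase inhibitor set by dopamine through protein kinase A. It was at 228, 205, 166 and 181 CPM in WT-RA and at 91.7, 174, 160.4 and 251 CPM in WT-O2. It was at 26.6, 49.5 and 77.7 CPM in KO-RA and at 43.03, 26.7 and 43.4 CPM in KO-O2. The KO-RA libraries differed among themselves by 2.93-fold, from GSD489 to GSD496, and the highest of them lay below the 91.7 CPM of WT-O2 mouse GSD404.

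Rgs9 (ENSMUSG00000020599), which speeds the shutting off of G proteins downstream of the D2 receptor, was at 51.6, 38.0, 37.8 and 35.98 CPM in WT-RA and at 22.9, 45.2, 38.1 and 62.4 CPM in WT-O2. In KO-RA it was at 11.5, 13.8 and 21.1 CPM, and in KO-O2 at 13.8, 14.3 and 13.2 CPM. KO-RA mouse GSD496, at 21.1, came close to WT-O2 mouse GSD404, at 22.9.

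Pde10a (ENSMUSG00000023868), a phosphodiesterase that breaks down cyclic AMP and cyclic GMP, was at 235, 188, 157 and 149 CPM in WT-RA and at 118, 177, 163 and 242 CPM in WT-O2. It was at 87.4, 83.2 and 90.8 CPM in KO-RA and at 83.7, 88.8 and 87.5 CPM in KO-O2. The 6 KO libraries thus lay within a narrow band, while the WT libraries ran from 118 to 242 CPM.

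Adcy5 (ENSMUSG00000022840), the adenylyl cyclase that makes most of the cyclic AMP of the striatum, was at 252, 234, 199.8 and 236 CPM in WT-RA and at 178, 226, 229 and 290.1 CPM in WT-O2. In KO-RA it was at 129, 132 and 134 CPM, and in KO-O2 at 132, 135 and 139.7 CPM. More of its level remained in KO than of any other member, 57.1% of the WT mean in room air and 58.8% in hyperoxia.

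Rarb (ENSMUSG00000017491), the retinoic acid receptor whose window carries the response element shown above, was at 11.96, 9.37, 9.26 and 8.04 CPM in WT-RA and at 6.23, 8.21, 9.03 and 12.9 CPM in WT-O2. It was at 4.46, 3.04 and 5.59 CPM in KO-RA and at 3.54, 4.11 and 3.75 CPM in KO-O2. WT-O2 mouse GSD404 was the lowest WT library, at 6.23, and KO-RA mouse GSD496 the highest KO library, at 5.59.

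Written as KO-RA vs WT-RA, the log2 fold changes were -2.79 for Adora2a (standard error 0.29), -2.70 for Drd1 (0.28), -1.93 for Ppp1r1b (0.34) and -1.82 for Drd2 (0.33). Those of Rgs9, Rarb, Gpr6 and Pde10a were -1.40 (0.27), -1.15 (0.23), -1.09 (0.21) and -1.06 (0.19), and that of Adcy5 was -0.81 (0.12). The median over the 9 genes was -1.40, beside -0.0067 over all genes tested. In KO-O2 vs WT-O2 the log2 fold changes ran from -2.99 for Adora2a (0.30) and -2.67 for Drd1 (0.28) to -1.01 for Pde10a (0.19) and -0.77 for Adcy5 (0.12), with a median of -1.62 beside -0.0089 over all genes.

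To be called, a gene had to be at least 25% higher in one group than in the other, with p below 0.05 and q below 0.1 in edgeR's quasi-likelihood test, where q is the p after Benjamini-Hochberg adjustment over the genes tested. All 9 members met these thresholds in KO-RA vs WT-RA, where 10.4% of all genes were called and 6.7% were called and lower in KO. All 9 met them in KO-O2 vs WT-O2, where 6.86% were called and 4.35% called and lower. The groups did not overlap for all 9 in either comparison, against 19.6% and 19% of all genes. These counts follow from the way the set was chosen, are no test of it, and are not read further.

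**Figure D2:**
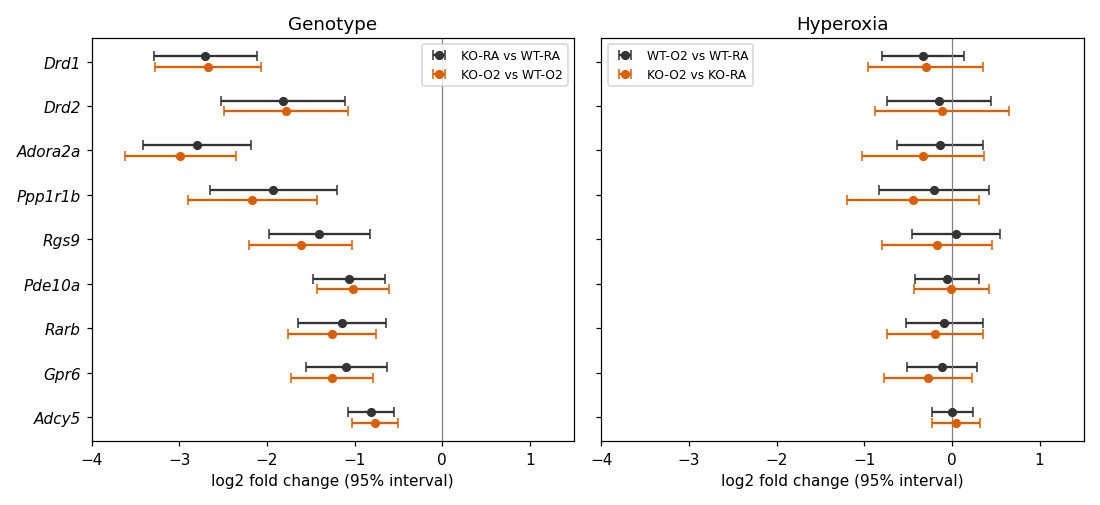
Log2 fold change of each gene (horizontal axis) with its 95% interval from the edgeR fit, for KO against WT on the left and hyperoxia against room air on the right. The genotype values lie between -2.99 and -0.77, and the hyperoxia values lie between -0.44 and 0.05 with intervals that include 0.

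The ratio of 2 members within a library does not depend on the scaling of that library. Drd1 divided by Drd2 was 0.949, 1.31, 1.64 and 1.48 in WT-RA and 1.73, 1.16, 1.12 and 0.94 in WT-O2. It was 0.593, 0.672 and 0.767 in KO-RA and 0.714, 0.697 and 0.408 in KO-O2, so that no KO library reached the lowest WT library. Since CPM is not per length, the ratio shows how libraries differ and not which receptor is more abundant.

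Adora2a divided by Drd2, the pair of the indirect pathway, was between 1.14 and 1.92 in the 8 WT libraries and between 0.349 and 0.714 in the 6 KO libraries. Drd1 divided by Adora2a, which mark opposite pathways, was between 0.803 and 1.17 in WT and between 0.58 and 2 in KO, with medians of 0.913 and 1.07. The groups thus overlapped for Drd1 against Adora2a and were apart for either of them against Drd2. The largest and the smallest KO ratio of Drd1 to Adora2a both came from KO-O2 libraries of 51 to 106 counts of either gene. These ratios were chosen after the levels were seen and use the genotype contrast, so they carry no test.

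**Figure D3:**
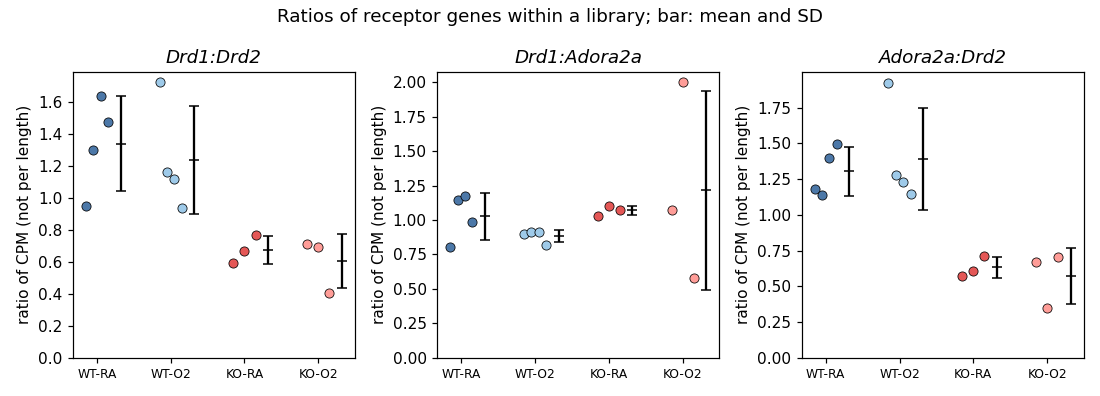
Ratio of the CPM of 2 receptor genes in each library (vertical axis, starting at 0) by group (horizontal axis), with 1 point per mouse and the mean and SD. Drd1 to Drd2 and Adora2a to Drd2 are lower in all 6 KO libraries than in all 8 WT libraries, and Drd1 to Adora2a overlaps.

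The question of hyperoxia was whether 85% oxygen changed these genes in either genotype. In WT-O2 vs WT-RA, 7 members had a negative and 2 a positive log2 fold change, with a median of -0.11 beside -0.0058 over all genes. The median turned to 0.056 without WT-O2 mouse GSD404 and was -0.30 without GSD408. Drd1 had the largest value, at 24.2 ± 1.3 CPM (SD, n = 4) in room air and 19.2 ± 4.4 CPM (SD, n = 4) in hyperoxia. Its log2 fold change was -0.33 (95% interval -0.80 to 0.14, q = 0.597 by edgeR's quasi-likelihood test). Adcy5 had the narrowest interval, around a log2 fold change of 0.0018, at 230.4 ± 21.9 CPM (SD, n = 4) in room air and 230.7 ± 46.0 CPM (SD, n = 4) in hyperoxia (95% interval -0.23 to 0.24, edgeR q = 0.999). None of the 9 was called by edgeR, with 0 at an unadjusted p below 0.05 and 0 called by DESeq2, where edgeR called 0.643% of all genes. The groups overlapped for all 9, and 5.99% of all genes were without overlap.

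Mice GSD404 and GSD408 set the spread of WT-O2. Mouse GSD404 was the lowest of its group for all 9 members and GSD408 the highest for 8. Without GSD404 the log2 fold changes ran from -0.20 for Drd1 to 0.25 for Rgs9, and without GSD408 that of Drd1 was -0.46 (edgeR q = 0.459) and its 3 WT-O2 libraries lay below all WT-RA libraries. With GSD408 as room air all 9 log2 fold changes were negative, with a median of -0.38. Ppp1r1b (-0.54, edgeR q = 0.528) and Drd2 (-0.53, edgeR q = 0.508) then had larger values than Drd1, which was again without overlap, at -0.46 (edgeR q = 0.478). No member was called in any of these fits. The share of all genes without overlap is not given for them, so the lack of overlap of Drd1 is not read as a result.

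In KO-O2 vs KO-RA, 8 members had a negative and 1 a positive log2 fold change, with a median of -0.20 beside -0.0020 over all genes. Ppp1r1b had the largest value, at 51.3 ± 25.6 CPM (SD, n = 3) in room air and 37.7 ± 9.5 CPM (SD, n = 3) in hyperoxia. Its log2 fold change was -0.44 (95% interval -1.196 to 0.31, edgeR q = 0.997). Pde10a stayed closest to its room air level, with 87.1 ± 3.8 CPM (SD, n = 3) and 86.7 ± 2.6 CPM (SD, n = 3), a log2 fold change of -0.0077 (95% interval -0.44 to 0.42, edgeR q = 0.998). edgeR called 0 of the 9, with 0 at an unadjusted p below 0.05 and 0 called by DESeq2, where edgeR called 0.012% of all genes. No member was without overlap, against 11.8% of all genes. The median turned to 0.06 without KO-RA mouse GSD496, the highest KO-RA library for all 9.

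The 2 hyperoxia effects were compared by the interaction term. Its log2 values ran from -0.24 for Ppp1r1b (95% interval -1.22 to 0.74) to 0.05 for Pde10a (-0.51 to 0.62). None of the 9 passed in edgeR, with 0 at an unadjusted p below 0.05 and 0 in DESeq2, where 0% of all genes were called and 673 had an unadjusted p below 0.05. The intervals for every member but Adcy5 allow differences between the genotypes of more than 25% in either direction. That of Adcy5 ran from -0.32 to 0.40.

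Within groups, the 9 genes varied together from mouse to mouse. Pearson's r between the deviations of 2 members from their group means, over 14 libraries, had a median of 0.69 over the 36 pairs, ranged from 0.41 to 0.957 and was positive for all 36. Every 10th gene tested, taken in pairs in the same way, had a median of -0.00066. Drd2 and Rgs9 were the closest pair (0.957), followed by Adora2a and Ppp1r1b (0.931). Drd1 and Adcy5 were the farthest (0.41), with r = 0.887 over the 8 WT libraries and -0.0063 over the 6 KO libraries. The median over pairs was 0.904 in WT and 0.5 in KO. All genes of a library share its dissection and its depth, so these values are a description and carry no p.

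The mean standardized deviation of the 9 genes was farthest from its group in WT-O2 mice GSD404 (-1.89) and GSD408 (1.60), and in KO-RA mouse GSD496 (1.198) among KO. Of 14458 other genes of at least 1 CPM, those most like this profile were Scn4b (r = 0.968 over 14 libraries), Syndig1l (0.929), Snx30 (0.915), Herpud1 (0.906), Pde1b (0.905), Klf15 (0.902), Cd4 (0.891) and Lss (0.889), beside a median of 0.0072 over all of them. Without GSD404 and GSD408 these r ranged from 0.694 for Lss to 0.914 for Cd4, and Scn4b was at 0.911. Scn4b, the β4 sodium channel subunit, was at 86.5, 62.0, 34.8 and 42.8 CPM in WT-RA and at 14.7, 39.7, 43.4 and 87.3 CPM in WT-O2. In KO it was at 7.24, 6.96 and 15.1 CPM in room air and at 7.20, 5.36 and 6.15 CPM in hyperoxia, with GSD496 again the highest KO library.

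**Figure D4:**
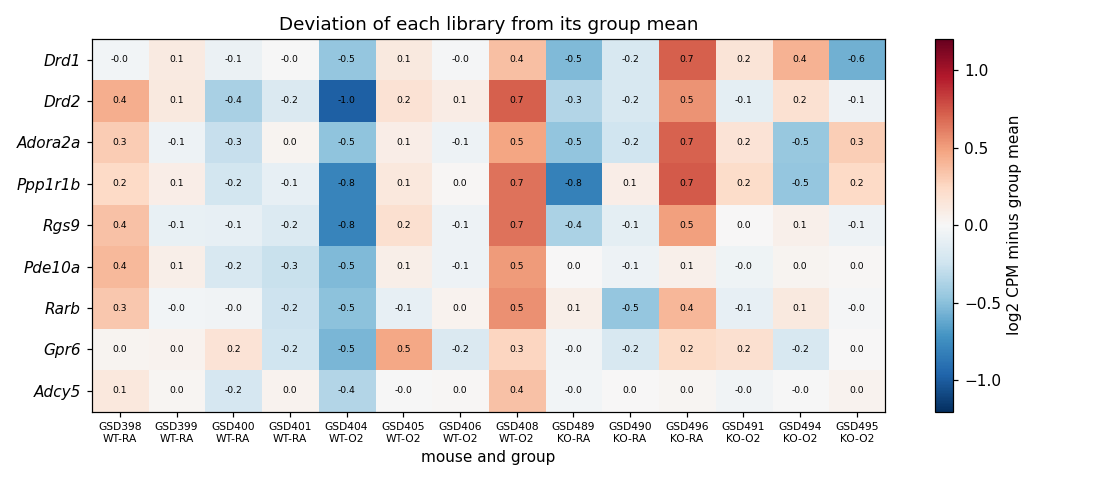
Deviation of log2 CPM from the mean of its group for each gene (rows) and mouse (columns), with the value printed in each cell. WT-O2 mouse GSD404 is below and GSD408 above the group mean for all 9 genes, and KO-RA mouse GSD496 is above it for all 9.

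Other genes of both pathways were counted from fixed lists. Beside the counts from every striatal list, 10.4% of all genes were called in room air and 6.86% in hyperoxia. Those called and lower in KO were 6.7% and 4.35%. Of 6 tested genes of the direct pathway, 4 were called lower and 1 higher in KO in room air, and 5 lower and 1 higher in hyperoxia. Tac1, the precursor of substance P, fell, with log2 fold changes of -1.19 in room air and -1.37 in hyperoxia (edgeR q = 0.000484 and 0.00035). Pdyn, the precursor of dynorphin, had values of -0.81 and -0.79 (edgeR q = 0.00253 and 0.00456). Isl1, a transcription factor of direct pathway neurons, had 42 to 137 counts in the WT libraries and 0, 8 and 11 in KO-RA and 7, 4 and 8 in KO-O2. Eya1 was the gene called higher, by 0.77 and 0.57 (edgeR q = 0.000324 and 0.00381).

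Of 5 tested genes of the indirect pathway, 4 were called lower in room air and all 5 in hyperoxia, and none higher. Penk, the precursor of enkephalin, was at 134, 146, 73.7 and 132 CPM in WT-RA, 70.7, 135, 111 and 178 CPM in WT-O2, 13.7, 12.98 and 25.1 CPM in KO-RA and 15.5, 15.2 and 14.3 CPM in KO-O2. Its log2 fold changes were -2.81 and -3.04 (edgeR q = 0.000162 and 0.000135). Six3, a factor of indirect pathway neurons, had log2 fold changes of -3.70 and -3.73 (edgeR q = 0.00254 and 0.00376).

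Among 17 other striatal signalling genes, 9 were called lower and 2 higher in room air, and 7 lower and 1 higher in hyperoxia. Scn4b fell in both, with log2 fold changes of -2.53 and -2.89 (edgeR q = 0.00498 and 0.00434). The cannabinoid receptor gene Cnr1 was called higher in room air, by 0.43 (edgeR q = 0.00727). Of 10 factors of striatal identity, 3 were called lower and 1 higher in room air, and 4 lower and 1 higher in hyperoxia. Foxp2 fell, with -3.03 and -2.97 (edgeR q = 4.32e-05 and 8.99e-05), whereas Bcl11b, which pyramidal neurons of the hippocampus also express, rose by 0.41 and 0.39 (edgeR q = 0.0121 and 0.021). The lists were chosen with genotype results known, so their counts and the q of the genes named from them are not independent evidence of a direction.

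Relatives of the members were counted in the same way, beside the 10.4% of all genes called in room air and 6.86% in hyperoxia, and a count of 1 or 2 genes is not read as a result about its list. Of 7 tested relatives of the dopamine and adenosine receptors, 0 were called lower and 1 higher in each comparison by edgeR, Drd5, the other D1-like receptor, in room air (log2 fold change 0.55, edgeR q = 0.091) and Gpr3, a relative of Gpr6, in hyperoxia (0.46, edgeR q = 0.0538). Of 8 adenylyl cyclases other than Adcy5, 2 were called lower in room air and 1 lower and 1 higher in hyperoxia, with Adcy8 lower in both (-0.46 and -0.47). Of 11 other phosphodiesterases, 4 were called lower in each comparison and none higher, among them Pde7b (-1.29 and -1.19) and Pde1b (-1.08 and -0.98). Pde1b is also on the list of striatal signalling genes and is counted in both.

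Among 7 genes of the RGS9 complex and its relatives, Rgs6 was lower in both comparisons (-0.89 and -0.64) and Rgs11 was higher in hyperoxia (0.57). Of 14 kinases and phosphatases that act on DARPP-32, 2 were called lower and 1 higher in each comparison, the protein kinase A subunits Prkacb (-0.52 and -0.54) and Prkar2b (-0.56 and -0.68) and the calcineurin subunit Ppp3ca (0.41 and 0.50). Of 12 genes of the retinoid pathway, 2 were called lower and 1 higher in room air and 3 lower and 1 higher in hyperoxia. Aldh1a3, which makes retinoic acid and averaged 0.843 CPM, was the gene called higher in KO in room air, with a log2 fold change of 1.45 (edgeR q = 0.0012), the largest of those 3, and it had -0.17 in hyperoxia (edgeR q = 0.769). Crabp1, a retinoic acid binding protein, had log2 fold changes of -0.79 and -1.33 (edgeR q = 0.0361 and 0.00344). Rxrg, called lower in hyperoxia (-1.25, edgeR q = 0.0075), is also on the list of identity factors and is counted in both. In WT-O2 vs WT-RA, where edgeR called 0.643% of all genes, 1 gene of the lists of striatal genes and their relatives was called. It was Arpp19, a phosphatase regulator, with a log2 fold change of -0.44 (edgeR q = 0.0529). None was called in KO-O2 vs KO-RA or by the interaction, where edgeR called 0.012% and 0% of all genes.

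Markers of several other regions and cell types differed by genotype too. The shares of all genes beside the counts here and below were 10.4% called in room air and 6.86% in hyperoxia. Those called and lower in KO were 6.7% and 4.35%. All 7 markers of cholinergic neurons were called lower in KO in both comparisons, with 12 to 98 counts of Chat, the acetylcholine synthesis enzyme, in WT libraries and 1 or 2 in KO libraries, and 10 to 49 counts of Lhx8 in WT and 0 to 2 in KO. Their summed level was 92.5 to 132 CPM in WT-RA, 94.3 to 136 in WT-O2, 75.7 to 84.5 in KO-RA and 82.2 to 84.1 in KO-O2. Most of that sum is Ache, acetylcholinesterase, which other neurons express too, with a mean of 91.6 CPM over all libraries and log2 fold changes of -0.32 and -0.38. Of 14 thalamic and habenular markers, 6 were called lower in each comparison and none higher, with summed levels of 170.0 to 1017 CPM in WT-RA, 370.4 to 793 in WT-O2, 219 to 249.9 in KO-RA and 237 to 248 in KO-O2. The thalamic factor Shox2 had 1 to 5 counts in KO libraries and 5 to 743 in WT libraries.

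Oligodendrocyte markers were called lower for 8 of 8 in room air and 5 of 8 in hyperoxia. Their summed level was 7927 to 19830 CPM in WT-RA, 4962 to 13220 in WT-O2, 3410 to 5486 in KO-RA and 3379 to 5948 in KO-O2. WT-O2 mouse GSD404 lay within the KO range for these markers and was the lowest WT library for all 9 members. Its level there was 2.84 times that of the highest KO library for Adora2a, 2.37 for Drd1, 1.295 for Pde10a and 1.27 for Adcy5, and only 1.18 for Ppp1r1b, 1.12 for Rarb, 1.11 for Gpr6, 1.09 for Rgs9 and 1.05 for Drd2. Within groups, all 8 oligodendrocyte markers varied with the 9 members, with a median r of 0.722 to the members' mean deviation over 14 libraries. Among markers of at least 1 CPM, the median was 0.656 for 5 cholinergic and 0.439 for 13 thalamic and habenular genes. The thalamic and habenular median was 0.53 over the 8 WT libraries and -0.296 over the 6 KO libraries. The cholinergic median was 0.717 and 0.408. All 9 choroid plexus markers varied with the members too, at a median of 0.353 (0.475 in WT, 0.541 in KO). Over the 14 libraries the lists of other striatal genes had lower medians than the oligodendrocyte list. They were 0.572 for signalling, 0.506 for identity factors, 0.41 for the direct and 0.327 for the indirect pathway. This order held in the 8 WT libraries (0.797, against 0.688, 0.444, 0.423 and 0.183) but not in the 6 KO libraries. There the oligodendrocyte median was 0.496, with 0.107 for signalling, 0.523 for identity factors, 0.5 for the direct and 0.499 for the indirect pathway.

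Hippocampal markers were called higher in KO for 11 of 14 in room air and 6 of 14 in hyperoxia and none lower, with summed levels of 788 to 1109 CPM in WT-RA, 1013 to 1222 in WT-O2, 1534 to 1891 in KO-RA and 1606 to 1853 in KO-O2. Cortical markers were called lower for 7 of 11 and 4 of 11. Of the 4 genes shared by inhibitory neurons, Gad2 and Slc32a1, which serve the synthesis and the vesicle loading of GABA, were called lower, with log2 fold changes of -0.42 and -0.58 in room air and -0.49 and -0.65 in hyperoxia. The 8 markers of interneurons gave 1 higher and 2 lower in room air and none called in hyperoxia. Astrocyte markers gave 2 of 8 higher in each comparison, beside the same shares of all genes, microglial and choroid plexus markers none, and the choroid plexus sum ran from 42.2 to 3453 CPM among KO libraries. The part of these other regions and cell types in the difference of the 9 genes was not tested.

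**Figure D5:**
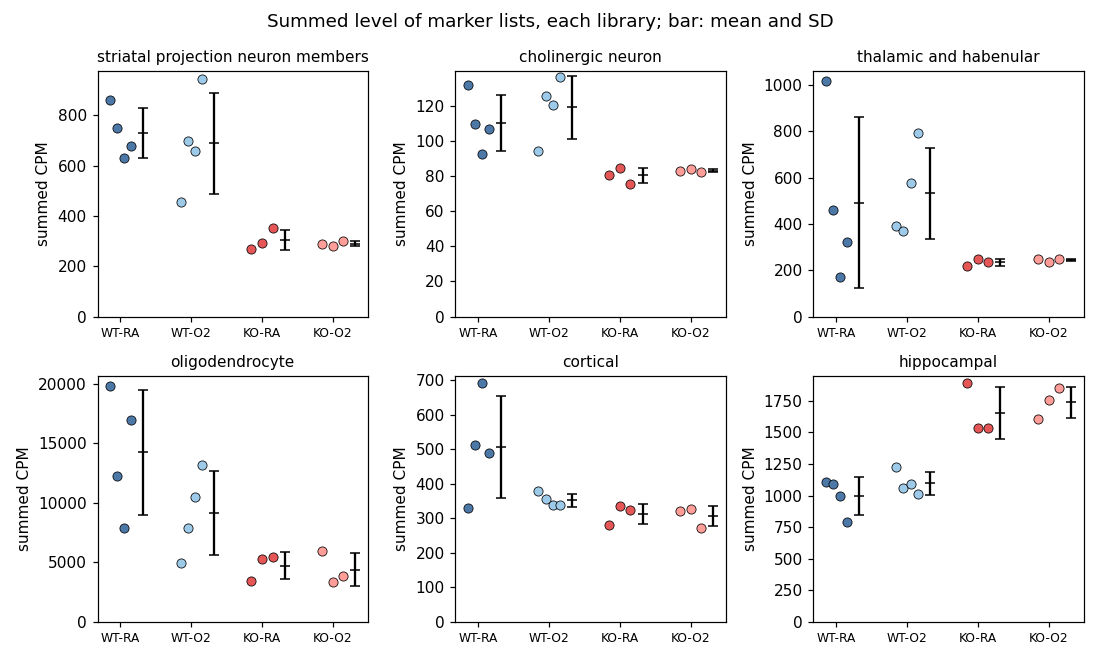
Summed CPM of the 9 genes and of 5 marker lists (vertical axis, starting at 0) in each library by group (horizontal axis), with the mean and SD beside the points. The sum of the 9 genes is 456.4 CPM or more in WT and 350.7 CPM or less in KO, the cholinergic list, mostly Ache, is also without overlap between genotypes, the hippocampal list is higher in all KO libraries, and the thalamic, oligodendrocyte and cortical lists overlap.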

How the data were processed

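Hippocampal RNA of 14 mice was sequenced after polyA selection. The authors deposited estimated counts per gene, made with kallisto on GRCm39 per the labels and summed to genes with tximport per the study's methods. The tool versions and the scaling of the counts are not given in the sources used here. Between 41% and 43.2% of values in a library were not whole, and counts were rounded.

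Counts were filtered with filterByExpr (16637 of 36118 genes), scaled by TMM, and entered in 1 edgeR model (version 4.0.16, R 4.3.3) of all 14 libraries with a coefficient for each of the 4 groups. Standard errors and 95% intervals come from the quasi-likelihood F. The 25% difference, p of 0.05 and q of 0.1 follow the study's methods. log2 CPM used a prior count of 2. The code was tested on simulated data. Alternatives were DESeq2 1.42.0, its size factors or library size, no filter or at least 10 counts in every library, only the groups compared, mouse GSD408 as room air, and each mouse left out.

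The members and all lists were chosen with earlier results of these data known. All 9 members are named in full. From a list, genes were named if called, at most 5 by size, and Isl1, Chat, Lhx8 and Shox2 also by their counts. Some genes that this rule names are not reported here. The 8 genes of like pattern had the highest r to the members' mean standardized deviation. WT mice were littermates of KO mice per the study's methods. The litter of each mouse is not given in the sources used here, so litter is not in the model, and p-values measure the spread between these mice. At this depth, a member at 51 counts carries counting error of its own.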

Additional observations from a re-analysis of the deposited data

Results flagged for a closer look

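Among the 18 WT groups of 4 values (9 genes in WT-RA and WT-O2), 1 held a library far from the others by Dixon's test. Rgs9 was at 51.6 CPM in WT-RA mouse GSD398 against 35.98 to 38.0 in the other WT-RA mice, a gap of 0.868 of the range, above the 95% critical value. Chance flags about 1 group in 20. Groups of 3 were not tested. No member's hyperoxia effect passed the interaction test.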

How the results depend on the processing

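None of the 9 members was called in either hyperoxia comparison or by the interaction in any setting run, with edgeR or DESeq2 (0 at an unadjusted p below 0.05 in the fit reported). The genotype calls of the members follow from their choice and say nothing of stability. Directions under hyperoxia varied. With mouse GSD408 as room air, the WT hyperoxia log2 fold change turned to -0.35 for Rgs9 and -0.20 for Adcy5, the interaction turned to 0.049 for Adora2a, 0.093 for Ppp1r1b, 0.18 for Rgs9 and 0.20 for Rarb, and 1 member (Drd1) was without overlap in WT. No share of all genes without overlap is given for that setting or the refits that follow, so these counts are not read as a result. With each mouse left out in turn, 0 to 1 members were without overlap in WT-O2 vs WT-RA and 0 to 2 in KO-O2 vs KO-RA. In the same refits the WT hyperoxia values that changed sign ranged from -0.42 to 0.087 for Drd2, -0.32 to 0.0031 for Adora2a, -0.46 to 0.0012 for Ppp1r1b, -0.21 to 0.25 for Rgs9, -0.26 to 0.0902 for Pde10a, -0.30 to 0.056 for Rarb, -0.28 to 0.043 for Gpr6 and -0.13 to 0.11 for Adcy5. Those in KO ranged from -0.54 to 0.16 for Drd1, -0.28 to 0.22 for Drd2, -0.55 to 0.13 for Adora2a, -0.34 to 0.12 for Rgs9, -0.041 to 0.024 for Pde10a and -0.40 to 0.023 for Rarb. Interaction values ranged from -0.20 to 0.49 for Drd1, -0.20 to 0.36 for Drd2, -0.41 to 0.26 for Adora2a, -0.55 to 0.19 for Ppp1r1b, -0.42 to 0.072 for Rgs9, -0.10 to 0.25 for Pde10a, -0.32 to 0.11 for Rarb, -0.32 to 0.0048 for Gpr6 and -0.064 to 0.17 for Adcy5. The cause was not tested. Over all genes, WT hyperoxia calls went from 107 to 310 with DESeq2, 20 with only the groups compared and 6 with mouse GSD408 as room air, and from 13 to 272 with a mouse left out. In KO they went from 2 to 13, 4 and 0 (725 at an unadjusted p below 0.05 in edgeR), to 6 with no filter, and from 1 to 4 with a mouse left out. Genotype calls ranged from 1076 to 1929 in room air and 675 to 1335 in hyperoxia with a mouse left out. No paired analysis was possible because the labels give the groups no shared replicate numbers.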
